A study of Mus musculus with 12 samples.

Results

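The cells described here are 600 of the 27881 cells in a single-cell RNA table of mouse small intestinal epithelium. They were chosen by a score over 7 genes, Leap2, Bbox1, Ltc4s, Cd36, Apoc2, Cyp2b10 and Dnase1, among the 18215 cells whose value was 0 for S100g, Slc5a12, Slc10a2 and Nt5e. The score was the mean of the natural logarithm of 1 plus the value per 10000 units of the cell's total, and the 600 highest cells were taken. They carry the working name lipid-handling upper jejunal enterocytes and are called members in the plots. All 600 also had values above 0 for Fabp2 and Apoa1, and they were set against the 17258 other cells of the table that met the same condition, called other enterocytes here.

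The cells came from adult mice of the strain Lgr5DTR-GFP, which carries a reporter of the stem cell gene Lgr5, sorted as CD45-negative and EpCAM-positive, that is, epithelial cells without blood cells. The design text gives 2 small intestines, each divided into 30 equal segments whose cells were tagged with lipid-anchored oligonucleotide barcodes (MULTI-seq) before pooling and sequencing from the 3′ end of transcripts. The sample titles do not say which samples that design covers. The series has 8 diet, 2 total epithelium and 2 progenitor samples, and only the table of the diet samples was used. The labels name no diet, and the segment of each cell was not used here, so neither diets nor segments were compared.

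Enterocytes take up the fatty acids and monoglycerides that pancreatic lipase releases from dietary fat. They bind and activate the fatty acids, rebuild triglyceride at the endoplasmic reticulum, load it onto apolipoprotein B with the help of the microsomal triglyceride transfer protein, and export it as chylomicrons to the lymph. In the textbook account most fat is absorbed in the duodenum and upper jejunum, while bile acids are recovered in the ileum.

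The values of the table were whole numbers on a scale set by the authors and were not raw molecule counts, so no counting interval can be given for a level. A level is stated in ppm, a gene's summed value in a group of cells relative to the sum over all genes there. The cell barcodes fall into 8 sets whose numbers do not match the sample titles, so the table counts as 1 sample. Levels are therefore given as the lowest, median and highest of the 8 sets, differences as the mean log2 difference within sets with its SD over sets, and no test was made. A gene met the size rule when its mean level was at least 10 ppm, its mean difference was at least 2-fold and its sign was the same in every set used. Because the cells were chosen on values of this same table, every difference below describes the choice and is not independent support for it.

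The lowest member scored 0.788 and the first cell outside 0.787, with the tenth cell inside at 0.792 and the tenth outside at 0.781. Of the 178 cells within 0.05 of that boundary, 86 were members, so the 600 cells are the upper end of a range of scores. No clustering was run. The highest member scored 2.48 and the median member 1.06, while 11051 of the 18215 eligible cells scored 0. A further 1826 cells scored above the boundary but had a value for a gene required to be at 0, most often Slc5a12 (1086 cells) and S100g (828 cells). Without that requirement only 85 of the 600 cells would have been chosen, whereas leaving any single gene out of the score kept between 482 (Apoc2) and 595 (Bbox1) of them.

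The promoters of 3 genes are shown, each taken from RefSeq for GRCm38.p6 as the bases before the annotated start. Fabp1 and Rbp2 took the largest shares of the summed values among nuclear genes outside the choice, and Reg3a was the gene above all 3 regional groups described below. Capitals mark AGGTCA, the hexamer that nuclear receptors bind, and AAAGTCC, a core of the HNF4 motif, on either strand (TGACCT and GGACTTT on the other).
Fabp1: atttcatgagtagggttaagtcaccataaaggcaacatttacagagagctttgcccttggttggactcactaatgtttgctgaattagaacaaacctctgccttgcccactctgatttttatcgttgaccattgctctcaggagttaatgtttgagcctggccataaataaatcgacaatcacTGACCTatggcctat
Rbp2: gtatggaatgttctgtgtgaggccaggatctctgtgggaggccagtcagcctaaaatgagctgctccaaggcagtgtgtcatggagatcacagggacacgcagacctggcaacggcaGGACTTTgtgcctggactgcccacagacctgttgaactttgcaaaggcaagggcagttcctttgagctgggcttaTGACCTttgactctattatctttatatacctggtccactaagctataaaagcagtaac
Reg3a: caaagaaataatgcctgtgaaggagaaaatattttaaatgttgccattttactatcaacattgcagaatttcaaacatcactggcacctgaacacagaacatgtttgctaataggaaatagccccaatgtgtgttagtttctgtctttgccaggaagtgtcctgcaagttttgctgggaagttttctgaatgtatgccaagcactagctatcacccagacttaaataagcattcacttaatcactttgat
The Fabp1 window is chr6:71199629-71199826 (198 bases, ended at the first annotated exon), the Rbp2 window chr9:98490287-98490536 (250 bases) and the Reg3a window chr6:78380459-78380708 (250 bases), all on the plus strand. Over the 250 bases before the start, AGGTCA on either strand was found in 14.02% of 32851 mouse promoters and AAAGTCC in 3.58%. AGGTCA was found for 3 of the 6 score genes with a promoter in the table (Apoc2, Cd36 and Dnase1) and for 5 of 12 with a promoter among the 15 genes that stood highest over other enterocytes (Fabp1, G6pc, H2-Q10, Mfsd2a and Rbp2). AAAGTCC was found for Rbp2 and H2-Q10 among those 12 and for none of the 6 score genes. The Reg3a window held neither. The percentages are over promoters and these counts over genes, with Dnase1 and Aldh1a1 each counted over all their promoters, so they are not directly comparable. The windows counted were not cut at exons, and the Dnase1 and G6pc matches of AGGTCA lay within annotated exons. These are matches of letters, not binding sites.

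The 7 genes that chose the cells differed widely in how many of the 600 cells had a value above 0. Apoc2, the cofactor of lipoprotein lipase, was above 0 in 99.8% of the cells against 58.5% of other enterocytes. Leap2, a peptide that opposes ghrelin at its receptor, followed with 88.3% against 19.8%. The drug-metabolising cytochrome Cyp2b10 was above 0 in 56.5% of the cells and the nuclease gene Dnase1 in 48.3%. Cd36, a fatty acid translocase, was above 0 in 42.7%, Ltc4s (leukotriene C4 synthase) in 36.7% and Bbox1, the last enzyme of carnitine synthesis, in 16.2%. A cell had a median of 4 of the 7 genes above 0. In 89 cells there were only 2 and in 25 cells all 7, while 34.7% of other enterocytes had none. The 600 cells thus share Apoc2 and mostly Leap2, and differ in which of the other 5 genes had a value above 0. A value of 0 cannot be told from a gene that was not detected.

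By level, Apoc2 stood at 4066, 5961 and 7042 ppm (lowest, median and highest set) against 464, 1711 and 2605 ppm in other enterocytes. Leap2, which lies at chr11:53422181-53423170 on the minus strand (GRCm38), stood at 561, 743 and 894 ppm against 33.2, 196 and 337 ppm. Cd36 stood at 44.1, 107 and 133 ppm against 5.84, 26.1 and 43.1 ppm. For 6 of the 7 genes every set of the chosen cells was above every set of the others. Dnase1 was the exception, its lowest set at 64.2 ppm lying under the highest of the others at 88.6 ppm. The log2 differences ran from 1.78 ± 1.07 (SD over 8 sets) for Bbox1 to 2.36 ± 0.997 for Leap2. These values follow from the choice.

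**Figure D1:**
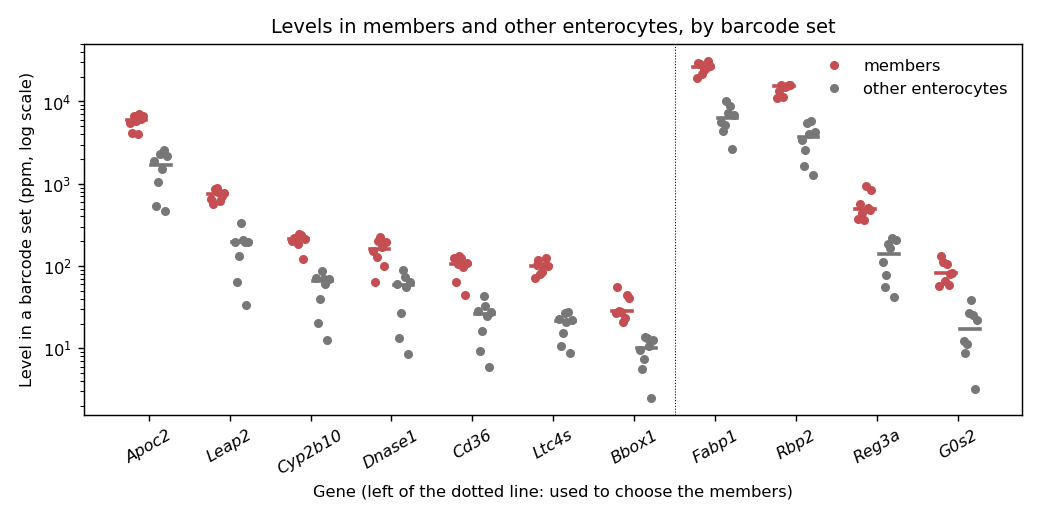
Level of each gene in ppm (log scale) in the 600 members (red) and the other enterocytes (grey), 1 point per barcode set, bars at the median. The 7 genes left of the dotted line chose the members; right of it, Fabp1, Rbp2, Reg3a and G0s2 had every set of the members above every set of the other enterocytes.

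The cells were enterocytes by their markers. All 12 enterocyte markers were above 0, and their summed level was 27666, 34075 and 40149 ppm against 4621, 14140 and 20968 ppm in other enterocytes. Rbp2 (median set 15322 ppm) and Apoa4 (8809 ppm), both described again below, made up a large part of that sum. The sum also varies by region, with a median of 11791 ppm in the ileal group described below. By gene, 4 of the 12 met the size rule as higher and 0 as lower (median log2 difference 0.75, and 0.13 in the narrower contrast described below). Sucrase-isomaltase (Sis) was above 0 in 96.5% of the cells, villin (Vil1) in 98.5% and alkaline phosphatase (Alpi) in 71.5%. The comparison group was less mature. Its 10 stem cell markers summed to 1430, 3120 and 6142 ppm against 239, 459 and 1400 ppm in the chosen cells, and its 10 transit-amplifying markers to 374, 621 and 1372 ppm against 138, 215 and 477 ppm. Crypt content therefore moves with every difference from other enterocytes given below, and its part in them was not tested. For most lists below, the counts against other enterocytes are therefore repeated for 2 smaller contrasts, in many cases with the medians. The narrower contrast took the 9931 other enterocytes with at least 9 of the 12 enterocyte markers, a choice made after the data had been seen. The matched contrast took 600 other enterocytes paired with the chosen cells on set and number of detected genes.

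**Figure D2:**
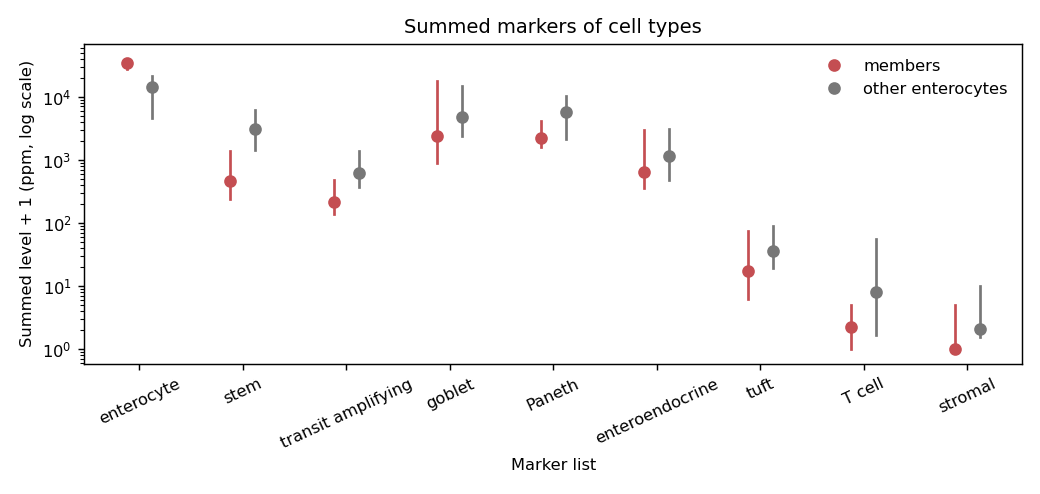
Summed level plus 1 (ppm, log scale) of the marker genes of 9 cell types in the members (red) and the other enterocytes (grey), points at the median and lines from the lowest to the highest of 8 barcode sets. The enterocyte sum is higher and the stem sum lower in the members without overlap of the lines, while the lines of all other sums overlap.

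Of 8430 genes considered against other enterocytes, 256 met the size rule as higher (3.04%) and 858 as lower (10.2%), and the median of all genes was -0.19. With the narrower contrast, 41 of 8034 were higher (0.510%) and 169 lower (2.10%), and with the matched contrast 96 of 8414 were higher (1.14%) and 435 lower (5.17%). Of 96 genes past the rule that were taken up for description, 44 still met it in the narrower and 54 in the matched contrast, each of the 96 with its sign unchanged there. If the values are not rescaled to ppm, the median of all genes moves by 0.25 to 0.06 and the split becomes 471 higher and 573 lower, that is, 45.1% of genes past the rule are higher instead of 23.0%. The gene groups below are read against the median of all genes.

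Several of the 15 genes that stood highest act in lipid binding and storage. Fabp1, which carries fatty acids through the cytoplasm and is also made in liver, took 19317, 26042 and 31205 ppm in the chosen cells, the largest share of any gene, against 2658, 6252 and 10268 ppm in other enterocytes. Its log2 difference was 2.10 ± 0.79, and 1.46 with the narrower contrast. G0s2, an inhibitor of adipose triglyceride lipase, was at 57.4, 81.2 and 132 ppm against 3.22, 17.2 and 38.7 ppm (2.38 ± 1.20). Mfsd2a, a transporter of lysophosphatidylcholine, was at 71.6, 97.4 and 147 ppm against 8.70, 33.0 and 42.2 ppm. For each of these 3 genes the sets of the compared groups did not overlap.

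The rest of the 15 were Paqr9 (2.30), Reg3a (2.22), Rbp2 (2.17), Cyp4a10 (1.97), the nucleoside transporter Slc28a1 (1.92), G6pc (1.92), Aldh1a1 (1.90), Dhrs1 (1.87), H2-Q10 (1.83), Apoc3 (1.83), Ms4a10 (1.81) and Prrx1 (1.75). Sets of the compared groups overlapped for G6pc and Apoc3 and for none of the other 13. How often sets did not overlap was not counted over all genes considered. The 15 were picked for large differences, so absence of overlap, here and for the other genes named, is description only. With the narrower contrast the 15 differences ran from 1.14 for Prrx1 to 1.77 for Paqr9, and Prrx1 and Cyp4a10 no longer met the rule. In the matched contrast G0s2, Paqr9, Cyp4a10 and H2-Q10 did not meet the rule. Cyp4a10, H2-Q10, Reg3a and the Gst genes below have close relatives, and the sources used here do not say how reads shared with a relative were assigned.

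Of 10 fatty acid uptake and binding genes considered, 3 were higher and 1 lower, with a list median of 0.61. The narrower contrast left 1 higher (Fabp1) and none lower (median 0.44), and the matched contrast 2 higher (Fabp1 and Acsl5) and none lower (median 0.29). Beside Fabp1, the activating enzyme Acsl5 stood at 1088, 1533 and 1695 ppm against 232, 603 and 717 ppm (1.50 ± 0.63, and 0.91 with the narrower contrast), with no overlap between sets. The very long-chain acyl-CoA synthetase Slc27a2 differed by 1.09 ± 0.51 with overlapping sets. Acsl3 was lower by -1.36 ± 0.89. Among genes that did not meet the rule, the acyl-CoA binding protein Dbi differed by 0.91 ± 0.33 and the transporter Slc27a4 by 0.87 ± 0.54. Scarb1 was at a median of 4.31 ppm and 3 further genes of the list were also under the minimum level.

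Triglyceride rebuilding followed, with 6 of 14 genes higher, none lower and a median of 0.99. None of the 14 met the rule in the narrower contrast (median 0.49) or in the matched contrast (median 0.61). Mogat2, which joins a fatty acid to monoglyceride, was at 132, 223 and 329 ppm against 26.5, 103 and 142 ppm (1.43 ± 0.97, and 0.81 with the narrower contrast). Dgat2, an enzyme of the last step, was at 152, 248 and 297 ppm against 31.1, 108 and 137 ppm (1.41 ± 0.81, and 0.85). Sets overlapped for Mogat2 and not for Dgat2. The lipid droplet proteins Cideb (1.39), Plin2 (1.13) and Plin3 (1.11) and the acyltransferase Agpat3 (1.06) made up the rest. Dgat1, the other enzyme of that step, differed by 0.75 ± 0.50 and did not meet the rule.

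Chylomicron assembly and apolipoproteins had 8 of 12 genes higher, none lower and a median of 1.07. The narrower contrast left 2 of them, Apoa4 and Apoc3 (median 0.67), and the matched contrast 3, with Mttp (median 0.72). Apoa4, a chylomicron apolipoprotein, stood at 5486, 8809 and 12466 ppm against 787, 3214 and 5871 ppm (1.74 ± 0.76). Mttp, the triglyceride transfer protein, stood at 1300, 1820 and 2009 ppm against 266, 749 and 926 ppm (1.48 ± 0.68, and 0.89 with the narrower contrast), with no overlap between sets, whereas the lowest set of the chosen cells for Apoa4 lay under the highest of the others. Apoc3 differed by 1.83 ± 0.68, and Tm6sf2, which aids lipid loading, by 1.25 ± 0.66 (0.70 with the narrower contrast). P4hb (the partner subunit of Mttp), Sar1b and Surf4 (export from the endoplasmic reticulum) and Pla2g12b also met the rule, P4hb, Sar1b and Surf4 at 1.04 to 1.15 and Pla2g12b at the 2-fold limit itself. Apob itself, the structural protein, did not, at 0.63 ± 0.43.

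Cholesterol genes gave other counts. Of 18 synthesis genes none met the rule in either direction against other enterocytes, with a median of -0.17 that became 0.08 without rescaling. In each smaller contrast 1 of the 18 was lower and 0 were higher (median -0.17 narrower, -0.25 matched). Of 12 transport and esterification genes, Lipa (lysosomal acid lipase, 1.49) was higher and the esterifying enzyme Soat1 (-2.19) lower, with a median of 0.08. With the narrower contrast neither met the rule, Lipa at 0.87 and Soat1 at -0.88 (list median -0.11). In the matched contrast Soat1 (-1.96) still met it and Lipa (0.93) did not, at a list median of 0.30. Npc1l1, the uptake protein for cholesterol, differed by 0.20 ± 0.40.

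In mitochondrial fatty acid breakdown, 3 of 23 genes met the rule as higher, Crat (carnitine acetyltransferase, 1.48 ± 0.80), Acadl (1.03 ± 0.44) and Acaa2 (1.03 ± 0.34), and none as lower, with a median of 0.62. Crat alone met it in the narrower (median 0.43) and the matched contrast (median 0.33). The gatekeeper Cpt1a stood at 77.2, 110 and 184 ppm against 78.3, 96.0 and 124 ppm, a difference of 0.25 ± 0.27. Peroxisomal and omega oxidation had 9 of 21 genes higher and none lower, with a median of 0.89, which became 2 higher (median 0.59) in the narrower and 3 higher (median 0.64) in the matched contrast. The omega-hydroxylase Cyp4a10 (1.97 ± 0.97), the thiolase Acaa1b (1.72 ± 0.81) and the thioesterase Acot4 (1.47 ± 0.73) led that list. In the matched contrast Cyp4a10 was at 0.87, under the rule and below Acaa1b (1.08) and Acot4 (1.43). Of 6 carnitine genes, 1 met the rule (Crot, the peroxisomal carnitine octanoyltransferase, 1.32 ± 0.59, and 0.86 with the narrower contrast), the list median was 0.15, and Aldh9a1, which acts just before Bbox1, differed by 0.96 ± 0.52. None of the 6 met the rule in the narrower (median -0.04) or the matched contrast (median 0.23). Of 18 targets and sensors of PPAR, the fatty acid-activated receptors, 4 were higher and none lower (median 0.46), and none of the 18 met the rule in the narrower (median 0.29) or the matched contrast (median 0.14). Plin2, Angptl4 (1.03), Pparg (1.02) and Pdk4 (1.02) were those 4, and the receptor Ppara itself differed by -0.59 ± 0.45.

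Of 6 genes of leukotriene and other eicosanoid synthesis considered beside the score gene Ltc4s, the soluble epoxide hydrolase Ephx2 was higher (1.69 ± 0.82) and the phospholipase Pla2g4a lower (-2.81 ± 1.74). Both met the rule in the narrower contrast, and only Ephx2 in the matched contrast. Alox5 and Alox5ap, which supply the substrate of leukotriene C4 synthase, had median levels of 0 ppm in the chosen cells.

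The other absorptive and metabolic lists differed among themselves. Carbohydrate digestion and uptake had 11 of 16 genes higher and none lower, with a median of 1.25, against 1 higher (median 0.74) in the narrower and 7 (median 1.01) in the matched contrast. Among the 11 were lactase (Lct, 1.47 ± 0.71, and 0.74 with the narrower contrast), the fructose transporter Slc2a5 (1.53 ± 0.83) and G6pc, the glucose-6-phosphatase (1.92 ± 0.79). Retinoid metabolism had 6 of 10 higher and none lower, with a median of 1.11, against 4 of 11 (median 0.48) in the narrower and 3 of 10 (median 0.57) in the matched contrast. Rbp2, which carries retinol inside the enterocyte, took 11151, 15322 and 16088 ppm against 1272, 3677 and 5792 ppm. It was followed by Aldh1a1 (1.90), Rdh7 (1.73) and Retsat (1.59). Glutathione transferases and conjugation had 11 of 25 higher and none lower (median 1.09), led by Gsta1 (1.72 ± 0.83), against 3 higher (median 0.64) in the narrower and 4 (median 0.69) in the matched contrast. Cytochrome P450 families 2 and 3 had 6 of 15 higher and none lower (median 0.94), led by Cyp2d26 (1.58 ± 0.85, and 0.92 with the narrower contrast). None of those 15 met the rule in the narrower contrast (median 0.40) and 4 did in the matched one (median 0.83). Peptide digestion and uptake had 5 of 22 higher and 1 lower (median 0.72). It had 0 higher and 2 lower in the narrower contrast, at a median of 0.11 beside -0.09 for all genes there, and 2 higher and 1 lower in the matched contrast (median 0.61). Iron, calcium and folate genes had 1 of 8 higher and 1 lower (median 0.22), the folate transporter Slc46a1 (1.20) and the iron exporter Slc40a1 (-1.19). The narrower contrast left 0 higher and 1 lower (median -0.13), with Slc46a1 at 0.63. The matched contrast had 1 higher and 1 lower (median 0.22). Bile acid genes had 1 of 6 higher and 1 lower (median -0.29), the nuclear receptor Nr0b2 (1.28) and Fabp6, described next. Nr0b2 met the rule in neither smaller contrast. Each had 0 higher and 1 lower (median -0.60 narrower, -0.33 matched).

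**Figure D3:**
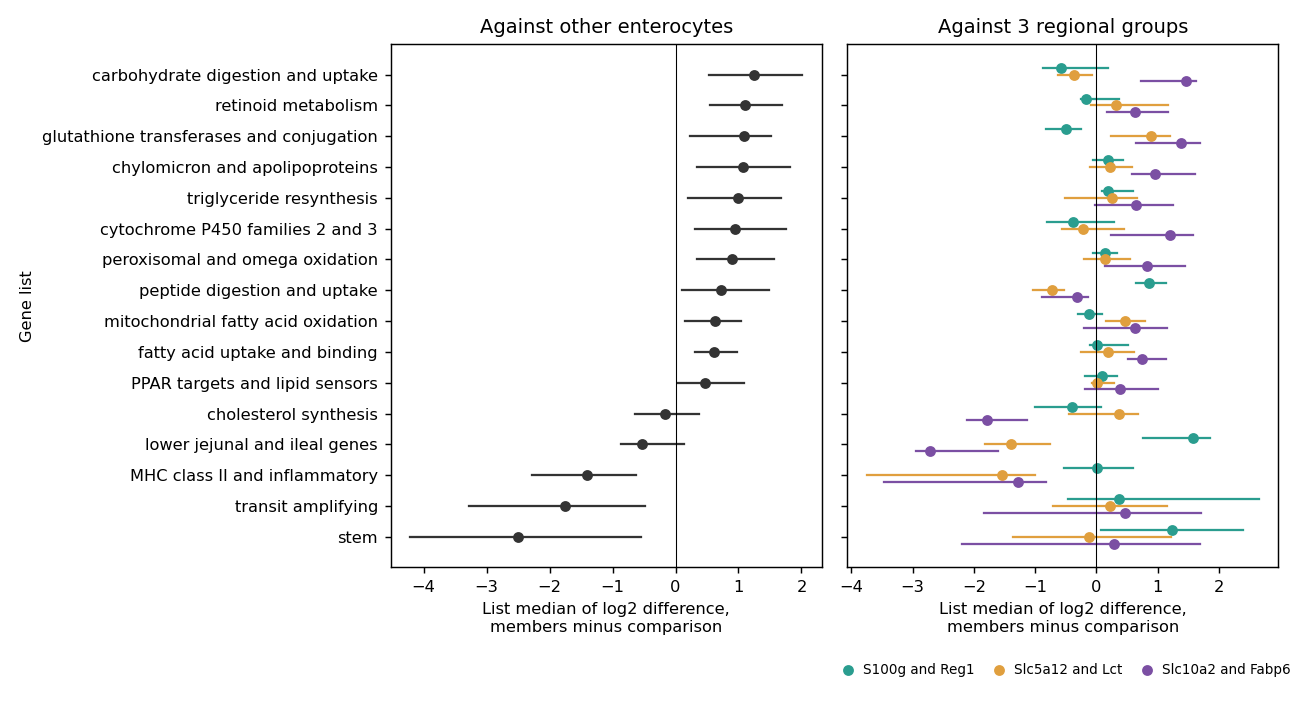
Median log2 difference of each gene list, the members minus other enterocytes (left) and minus the 3 regional groups (right), points at the list median and lines from the lowest to the highest barcode set. Against other enterocytes the lists from carbohydrate digestion down to PPAR targets lie above 0 in every set, and the stem list lies below 0; against the S100g and Reg1 group and the Slc5a12 and Lct group most lipid lists lie near 0.

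Among the 10 genes that stood lowest, Lgr5, the stem cell receptor, was at 3.02, 13.5 and 48.1 ppm against 99.9, 229 and 516 ppm (-4.10 ± 1.95), and all 9 stem markers considered were lower (median -2.50), as were 4 of 8 in the narrower contrast (median -1.37) and 8 of 9 in the matched contrast (median -2.11). The 10 largest also held Htr4 (-4.10), Kcnq1ot1 (-3.92), Nhs (-3.81), Sorcs2 (-3.77), Clca3a2 (-3.58), Mcc (-3.56), and Sorbs2 (-3.68) with its antisense partner Sorbs2os (-4.21). The sources used here do not say whether counting used the strand, so the last pair cannot be told apart. With 10 ppm added, Sorbs2os stood at -2.17 and Sorcs2 at -2.09. The largest difference was an ileal gene, Fabp6, the bile acid binding protein, at 4.01, 116 and 339 ppm against 934, 1970 and 6080 ppm (-4.83 ± 1.81). MHC class II and inflammatory genes had 4 of 9 lower and none higher (median -1.41), Duox2 (-2.42), Saa1 (-2.32), Nos2 (-2.24) and Cd74 (-1.77). The narrower contrast also had 4 of 9 lower (median -1.61). The matched contrast had 2 of 8 lower (median -1.17), Duox2 and Cd74. The median of -1.41 became -0.60 with 10 ppm added, -0.89 with 1200 members and -2.37 with 300. Saa1 was at 0 ppm in 6 of the 8 sets of the chosen cells, at 5.14 and 17.4 ppm in sets 8 and 6 against 133 and 92.0 ppm in other enterocytes, and at -0.97 with 10 ppm added, under the rule.

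Markers of other cell types were low or overlapped. The goblet sum was 892, 2391 and 17818 ppm against 2365, 4792 and 14540 ppm, and 0 of 9 goblet genes met the rule in either direction. The Paneth sum was 1578, 2227 and 4102 ppm against 2172, 5705 and 10319 ppm. Of 9 Paneth genes 0 were higher and 2 lower, Itln1 (-1.02) and Mptx2 (-1.01). None of the 9 met the rule in the narrower or the matched contrast. The enteroendocrine sum was 361, 650 and 2943 ppm against 473, 1141 and 3021 ppm, with 0 of 9 genes past the rule. The T cell markers summed to at most 4.01 ppm in any set, with 6 of 9 measured markers at 0, and the stromal markers also to at most 4.01 ppm, with 3 of 4 at 0. The part of the goblet signal in the results was not tested. Stress genes of cell isolation had a median of -0.16, with 0 of 12 higher and 1 lower.

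Without a segment barcode, the chosen cells were set against 3 groups of 600 other enterocytes each. The groups were the highest for S100g and Reg1 (genes best known from the duodenum), for Slc5a12 and Lct (jejunum) and for Slc10a2 and Fabp6 (ileum). These groups are also chosen on measured values. The first comparison used 8 sets and the others 7, since sets with fewer than 20 cells of a group were left out. Levels of the chosen cells are given over all 8 sets throughout, while group levels and log2 differences cover the sets used. Against the S100g and Reg1 group 143 of 8060 genes were higher (1.77%) and 143 lower (1.77%). Against the Slc5a12 and Lct group 167 of 7892 were higher (2.12%) and 135 lower (1.71%), and against the Slc10a2 and Fabp6 group 398 of 7984 were higher (4.98%) and 366 lower (4.58%). The medians of all genes were -0.02, -0.01 and -0.04. By number of genes the ileal group was the farthest of the 3.

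Several regional genes had levels in the chosen cells between those of the S100g and Reg1 group and the Slc5a12 and Lct group. Meis2, a transcription factor of the proximal intestine, had a median of 8.49 ppm against 308 ppm in the S100g and Reg1 group (-5.00 ± 1.09), 3.07 ppm in the Slc5a12 and Lct group and 0 ppm in the ileal group. Slc40a1, the iron exporter ferroportin, had 16.7 ppm against 392 ppm (-4.65 ± 0.99) and 3.07 ppm. The sulfotransferase gene Sult6b2 had 62.0 ppm, between 580 ppm (-3.19 ± 0.57) and 9.97 ppm (2.93 ± 1.66). Onecut2, a proximal transcription factor, likewise had 122 ppm, between 436 ppm (-1.68 ± 0.41) and 53.2 ppm (1.68 ± 1.27). These 4 genes fell in the same order, highest in the S100g and Reg1 group, then the chosen cells, then the Slc5a12 and Lct group, but the chosen cells' sets overlapped those of the Slc5a12 and Lct group for Meis2 and Slc40a1, and neither gene met the size rule there. The list of regional transcription factors as a whole did not show that order, with 2 of 14 higher and 3 lower (median 0.46) against the S100g and Reg1 group and 1 of 12 higher and 1 lower (median -0.06) against the Slc5a12 and Lct group.

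Other genes ran the other way, lower in the S100g and Reg1 group than in the Slc5a12 and Lct group. Cubn (cubilin), the receptor for vitamin B12 with its carrier, had a median of 141 ppm, between 43.0 ppm in the S100g and Reg1 group (2.73 ± 2.13) and 1099 ppm in the Slc5a12 and Lct group (-3.16 ± 0.96). The peptide transporter Slc15a1 had 303 ppm, between 115 ppm (1.40 ± 0.24) and 843 ppm (-1.45 ± 0.33). The peptidases Dpp4 (1.48 ± 0.22 and -1.15 ± 0.30) and Ace (1.35 ± 0.30 and -1.33 ± 0.26) were in between in the same way. By list, the 9 duodenal genes had a median of -1.68 against the S100g and Reg1 group (0 higher, 6 lower) and 1.68 against the Slc5a12 and Lct group (4 higher, 0 lower). The lower jejunal and ileal genes had medians of 1.57 (6 of 14 higher, 0 lower) and -1.39 (0 higher, 9 of 16 lower).

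**Figure D4:**
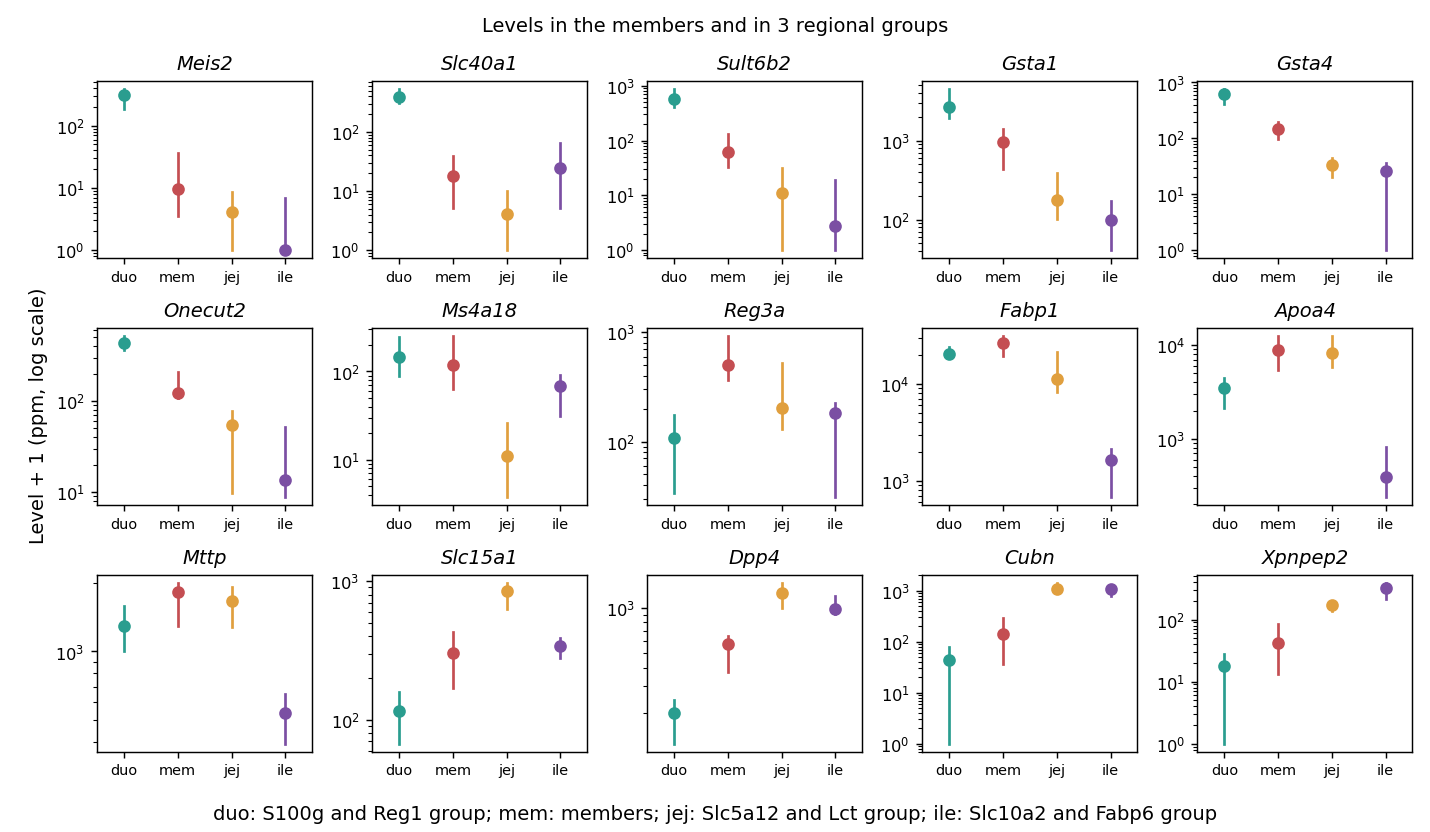
Level plus 1 in ppm (log scale) of 15 genes in the S100g and Reg1 group (duo), the members (mem), the Slc5a12 and Lct group (jej) and the Slc10a2 and Fabp6 group (ile), points at the median and lines from the lowest to the highest barcode set used. Meis2, Sult6b2, Gsta1 and Onecut2 step down and Dpp4 and Cubn step up from the duo to the jej group through the members, while Reg3a is highest in the members.

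The name upper jejunal remains a working name, since the place of each cell in the intestine was not read. Genes required to be at 0 included S100g and Slc5a12, which define the neighbouring groups. Part of the distance to each group is therefore set by the choice, and the intermediate levels are no independent support for the name. Levels summed over cells also cannot tell intermediate cells from a mix of cells.

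Of the lipid lists, those of chylomicron, triglyceride and fatty acid uptake genes had medians nearer 0 against the first pair of regional groups than against the ileal group, a difference that was not tested. The chylomicron list had a median of 0.19 against the S100g and Reg1 group (1 of 12 higher) and 0.22 against the Slc5a12 and Lct group (0 of 12), with 0 lower in both, and 0.96 against the ileal group (6 of 12 higher, 0 lower). The triglyceride list gave 0.18 (1 of 14 higher, 1 lower), 0.26 (0 of 13 in either direction) and 0.65 (3 of 14 higher, 1 lower), and its sets overlapped between the comparisons, from -0.51 to 0.66 against the Slc5a12 and Lct group and from -0.02 to 1.25 against the ileal group. The fatty acid uptake list gave 0.01 (1 of 11 higher, 1 lower), 0.19 (1 of 10 higher, 0 lower) and 0.74 (3 of 10 higher, 0 lower). Cholesterol transport, at 0.33 (3 of 12 higher, 0 lower), -0.21 (0 higher, 1 lower) and -0.08 (1 higher, 1 lower), and carnitine genes, at 0.59, -0.24 and -0.24, did not follow that order. The order was not particular to lipid genes. Carbohydrate genes had medians of -0.57, -0.37 and 1.46, cytochrome P450 genes -0.38, -0.21 and 1.20, and retinoid genes -0.16, 0.32 and 0.64. Other lists did not follow it, such as the peptide list at 0.85, -0.73 and -0.32. Apoa4 was the chylomicron gene above the S100g and Reg1 group, at a median of 8809 ppm against 3530 ppm (1.33 ± 0.50), and it differed by 0.00 ± 0.61 from the Slc5a12 and Lct group at 8320 ppm. The lipid genes that met the rule over the S100g and Reg1 group also included Slc27a4 (1.24 ± 0.36), Lpin2, a phosphatidate phosphatase (1.50 ± 0.64), Npc1l1 (1.06 ± 0.37), Soat2 (1.12 ± 0.43) and Vnn1, a pantetheinase (1.99 ± 0.76). Vnn1 was in turn lower than in the Slc5a12 and Lct group (-1.42 ± 0.34). Lower than in the S100g and Reg1 group were Scarb1, a lipoprotein receptor (-2.42 ± 1.05), and the acyltransferase Gpat4 (-1.08 ± 0.59), which was also lower than in the ileal group (-1.25 ± 0.82).

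The mitochondrial genes that met the rule over the Slc5a12 and Lct group included Cpt1a and Acaa2. Cpt1a had a median of 110 ppm against 52.1 ppm (1.04 ± 0.42) and Acaa2 301 ppm against 160 ppm (1.02 ± 0.67), each higher in 7 of 7 sets. None of the 23 genes of that list met the rule against the S100g and Reg1 group, where its median was -0.11. Fabp1 was at a median of 26042 ppm in the chosen cells, 20099 ppm in the S100g and Reg1 group (0.30 ± 0.20), 11346 ppm in the Slc5a12 and Lct group (0.99 ± 0.62) and 1639 ppm in the ileal group (4.05 ± 0.66). Leap2 was at 743, 420, 822 and 32.9 ppm in the same order, a difference of -0.02 ± 0.60 from the Slc5a12 and Lct group for this score gene.

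Cholesterol synthesis separated the cells from the ileal group. Of its 21 genes 15 were lower and none higher (median -1.78), such as Hmgcs1 with a median of 71.5 ppm against 351 ppm (-2.23 ± 0.46). None met the rule against the other groups, where the medians were -0.39 and 0.36. Iron, calcium and folate genes separated the cells from the S100g and Reg1 group instead, with 6 of 9 lower and 0 higher (median -1.72). The ferritin heavy chain Fth1 had a median of 7031 ppm against 21972 ppm there (-1.72 ± 0.23), and the folate transporter Slc46a1 46.7 ppm against 102 ppm (-1.39 ± 0.81). Glutathione transferases and conjugation were intermediate, with medians of -0.50 (0 of 28 higher, 6 lower) and 0.89 (7 of 25 higher, 0 lower), Gsta1 running from 2683 ppm through 955 ppm to 176 ppm. The peptide list ran the other way, with medians of 0.85 (7 of 22 higher, 0 lower) and -0.73 (0 higher, 7 lower).

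Reg3a was the only one of 7521 genes considered in all 3 comparisons that was higher by the rule in each (0.0133%). This secreted C-type lectin with antimicrobial activity was at 365, 497 and 927 ppm in the chosen cells. Its medians were 106 ppm in the S100g and Reg1 group (2.51 ± 0.88), 201 ppm in the Slc5a12 and Lct group (1.29 ± 0.51) and 183 ppm in the ileal group (2.12 ± 1.11). It was above 0 in 56.0% of the chosen cells and in 35.3%, 32.2% and 37.8% of the groups. Its relatives Reg3b (1.55 ± 0.50, -0.04 ± 0.38 and -1.70 ± 0.87) and Reg3g (1.12 ± 0.30, -0.41 ± 0.45 and -1.97 ± 0.70) were not highest in these cells. Acss1, a mitochondrial acetyl-CoA synthetase, was the only gene lower in all 3 (0.0133%), at a median of 11.9 ppm against 36.0, 41.2 and 60.9 ppm, and was singled out after its values had been seen.

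Genes of a villus base and antimicrobial list were higher than in the Slc5a12 and Lct group. Of the 10 considered, 5 were higher and 0 lower, with a median of 0.99. Ms4a18 had a median of 118 ppm against 10.1 ppm (3.49 ± 0.98), the carbonic anhydrase Car4 91.5 ppm against 15.4 ppm (2.57 ± 0.94) and Lypd8, which keeps bacteria off the epithelium, 1580 ppm against 436 ppm (1.92 ± 0.52). Against the S100g and Reg1 group the same list had 4 of 10 higher and 1 lower at a median of -0.06, the 3 Reg3 genes above and Car4 (1.42 ± 1.20) being higher and Il18 (-1.14 ± 0.27) lower. Against the ileal group it had 1 of 11 higher and 2 lower (median 0.33). Villus tip genes were not lower against any group. They had 1 of 11 higher and 0 lower (median 0.00) against the Slc5a12 and Lct group. Against the S100g and Reg1 group 3 of 11 were higher and 0 lower (median 0.80). Against the ileal group 3 of 11 were higher and 0 lower (median -0.12). Nt5e, a gene of the villus tip, was required to be at 0 in the chosen cells but not in the groups. Part of these differences may therefore be set by the choice. The stem and transit-amplifying sums of the chosen cells, 459 and 215 ppm in the median set, stood beside 501 and 174 ppm in the Slc5a12 and Lct group and 241 and 150 ppm in the S100g and Reg1 group. Their part in these differences was not tested.

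The sets contributed unequally. Set 4 held 172 of the 600 cells, 7.52% of its cells (exact binomial 95% interval 6.48 to 8.68), while the other sets ran from 0.698% to 3.58%, and the median of the 8 was 1.74%. These intervals cover counting error only. As a share of all enterocytes by Fabp2 and Apoa1, the cells made up 1.21% to 7.96% of a set. The 600 cells had a median of 2093 detected genes and a summed value of 6459 units, against 1812 and 5058.5 in other enterocytes, and 10 lay above the 95th percentile of detected genes of their own set. Barcodes of 7 of the 600 cells were also found in another set. Without set 4 the count of higher genes was 368 and that of lower genes 1108, and the chylomicron, triglyceride and fatty acid medians were 1.17, 1.09 and 0.68.

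**Figure D5:**
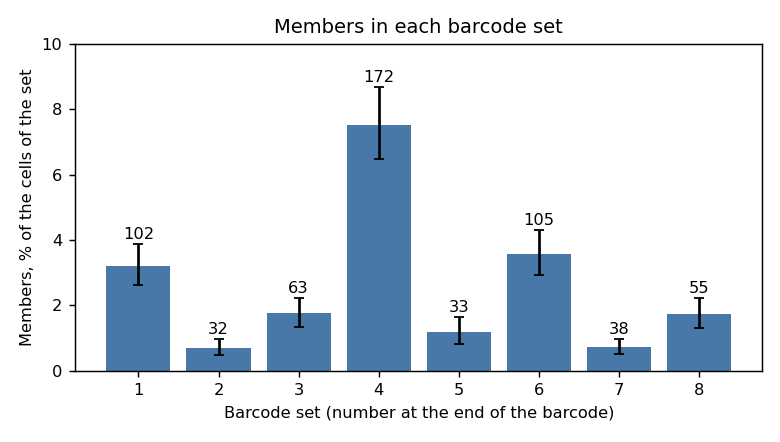
Share of each barcode set's cells that are members, in percent, with exact binomial 95% intervals and the number of members above each bar. Set 4 stands at 7.52%, above the 0.698% to 3.58% of the other 7 sets.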

How the data were processed

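The deposited table held 1 whole-number value per gene and cell, treated as a score: 27881 cells, 20090 genes, cell totals of 2764 to 9739, and the value 2 more frequent than 1 in 25.3% of cells, which raw counts do not show. Per the submitters' processing notes the authors used Cell Ranger and mm10. The sources used here do not give the rescaling, merging, cell and doublet filters, and no cell was removed or doublet called. The depth behind each value is unknown. Between sets 78 barcodes recurred, leaving 27802 distinct.

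Members, gene lists and the size rule were chosen with earlier results of these data known. Values were summed per group and set, scaled to ppm, and compared as log2((ppm + 1)/(ppm + 1)) in sets with at least 20 cells of both groups. Differences of low genes depend on the 1 ppm added. With 10 ppm, 459 genes were lower than in other enterocytes instead of 858. The 13 genes of the choice (score, zero and gate genes) were left out of counts and lists. Named genes were the 15 highest and 10 lowest past the rule, without Gm and Rik models, and per list up to 4 past the rule, or the 2 of highest level where none was. Genes named beyond these, among them those named against the regional groups and those that did not meet the rule, were chosen after their values were seen. The regional groups were scored like the members among other enterocytes. Alternatives were other pseudocounts, filters, scaling, numbers of members, contrasts and left-out sets or score genes. Gene positions come from GENCODE, promoters from RefSeq. Values of a few genes are not reported here. The scripts were tested on simulated data. The tools were pandas 2.3.3, numpy 2.4.6 and scipy 1.17.1 in Python 3.11.15, with plots from matplotlib 3.10.9.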

Additional observations from a re-analysis of the deposited data

Results flagged for a closer look

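Over the 8 barcode sets, 139 values were checked for a single set far from the others, a check that chance alone passes in about 1 of 20 groups, and 5 stood apart. The share of lipid-handling cells was 7.52% in set 4 and 0.698% to 3.58% in the rest. The enteroendocrine list median against other enterocytes was 0.95 in set 4 and -1.54 to -0.36 in the rest. Dnase1, a gene of the score, differed by 3.41 (log2) in set 7 and by 1.18 to 2.20 in the rest. Tmigd1, a lower jejunal and ileal gene, differed by -5.13 in set 2 and by -2.94 to -1.26 in the rest. Cd74, the MHC class II invariant chain, differed by -5.78 in set 5 and by -1.83 to -0.63 in the rest.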

How the results depend on the processing

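Differences were taken within barcode sets. No paired analysis was possible because the sets carry no replicate number of the labels and no result comes from a test. Against other enterocytes, the 256 genes higher and 858 lower became 145 and 459 with 10 ppm added, 471 higher without rescaling, 109 higher with 1200 members, 596 and 1512 without the zero genes, 96 and 435 with 600 cells matched on detected genes, and 98 higher in the 5 sets of at least 50 members. Without a minimum level 1617 were lower. Contrasts chosen after seeing the data gave 41 and 169 (enterocyte markers) and 622 and 1501 (other enterocytes also at 0 for the zero genes). The fatty acid uptake median of 0.61 became 0.23 without a minimum level, 0.86 without rescaling, 0.35 with 1200 members and 0.29 matched. The peroxisomal median of 0.89 became 1.36 without the zero genes and 1.34 in the contrast at 0.

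Against the S100g and Reg1 group, the 143 higher and 143 lower became 83 lower with 10 ppm added, 289 higher with 1200 members, 239 and 294 without the zero genes, and 293 and 229 in the sets of at least 50 members. Against the Slc5a12 and Lct group, the 167 and 135 became 74 and 83 with 10 ppm added, 344 and 77 without rescaling, 206 lower with 300 members, 86 lower with 1200 members, and 638 and 597 without the zero genes. Against the Slc10a2 and Fabp6 group, the 398 and 366 became 656 and 212 without rescaling, and 754 and 740 without the zero genes.

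Signs turned for the goblet median (-0.66 to 0.14 in a pooled sum and 0.075 matched), Slc40a1 (-1.19 to 0.22 without the zero genes and 0.054 in the contrast at 0), Ms4a18 (1.37 to -0.064 without the zero genes) and the lower jejunal and ileal median (-0.54 to 0.064 in the contrast at 0). Medians nearer 0 also turned, among others that of regional transcription factors (0.28 to -0.45 without a minimum level). Without the zero genes, those of villus base and antimicrobial genes (0.44 to -0.064) and cholesterol transport genes (0.08 to -0.27) turned. That of villus tip genes went from -0.12 to 0.36 in the matched contrast. The cause was not tested. Leaving out each set in turn gave 202 to 368 higher and 781 to 1108 lower genes. Of the 96 named genes past the rule, 44 still met it in the enterocyte-marker contrast, 54 matched, and 65 each with 1200 members and in the sets of at least 50 members. The 94 other than Slc40a1 and Ms4a18 kept their direction under all settings run. With unknown depth, levels near 0 ppm cannot be told from undetected.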
